A study of Rattus norvegicus with 6 samples.

Results

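The transcripts described here encode receptors of connective tissue growth factor (CTGF, the product of Ccn2): integrin subunits and Lrp1, the low density lipoprotein receptor-related protein 1. The probe sets were chosen by gene name alone, as those whose annotation carries exactly 1 of the 9 symbols Itgav, Itgb1, Itgb3, Itgb5, Itga5, Itga6, Itga1, Itga3 and Lrp1. A probe set was found for 6 of them, Itgb1, Itgb5, Itga1, Itga5, Itga6 and Lrp1, with 1 each, or 6 of the 27342 probe sets of the array. Itgav, Itgb3 and Itga3 were not analysed here. Whole ovaries of 0-day-old female Sprague-Dawley rats were cultured for 24 h with human CTGF at 500 ng/ml (CTGF) or with no added factor (control). Each group had 3 samples, each a pool of 2 to 3 ovaries taken from 1 well and from different pups of a litter, and each of the 3 organ culture batches held 1 CTGF and 1 control sample. The samples hold all cell types of the ovary, so fewer cells of a type and less RNA per cell cannot be told apart in them.

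Integrins are pairs of an alpha and a beta subunit that span the cell membrane and hold cells to the extracellular matrix. The beta subunit Itgb1 pairs with Itga1 to bind collagens, with Itga5 to bind fibronectin and with Itga6 to bind laminins of basement membranes. Itgb5 pairs with Itgav and binds vitronectin. CTGF is a matricellular protein that binds several integrins, and it also binds Lrp1, an endocytic receptor that takes up proteases, protease inhibitors and matrix proteins. In the newborn ovary a basement membrane surrounds the nests of oocytes, and it is remodelled as primordial follicles form.

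The signals were log2 values summarized per probe set, and the array medians lay between 5.82 and 5.84. To mark a background level, 44 probe sets of genes of other organs, called silent tissue genes here, were used, and the 95th percentile of their mean log2 signals was 5.49. All 6 receptor probe sets lay above it, as did 54.5% of all probe sets. The labelled tissue was checked by its markers. Of 11 oocyte markers 8 were measured, and all 8, with Ddx4, Dazl and Sycp3 among them, lay above this level. Of 11 granulosa cell markers 9 were measured and 8 lay above it, and all 10 stroma markers did. Batch differences had been taken out of the deposited values: for each probe set, averaging the CTGF and control arrays of a batch gave the same level in each of the 3 batches, with deviations of at most 0.005. An SD within a group thus holds no variation between culture dates, and it is nearly the same in both groups. The tests are from limma, blocked by culture batch, and have 2 residual degrees of freedom. Each log2 difference is CTGF minus control, and the precision of each is limited by the number of arrays.

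Itgb1, the beta subunit shared by the collagen, fibronectin and laminin receptors, had log2 signals of 11.37, 11.29 and 11.25 in the CTGF samples of batches 1, 2 and 3, against 11.23, 11.31 and 11.35 in the control samples. The groups overlapped, and the CTGF sample was the higher one in batch 1 and the lower one in batches 2 and 3. The means were 11.30 ± 0.06 with CTGF and 11.30 ± 0.06 in controls (SD, n = 3 each), a log2 difference of 0.01 (standard error 0.07, adjusted p = 0.994, limma). The 95% interval of the ratio of CTGF to control ran from 0.887 to 1.14. Itgb5, the vitronectin receptor subunit, had 9.02, 9.05 and 9.09 with CTGF, against 9.06, 9.02 and 8.98 in controls. The groups overlapped here too, with the CTGF sample lower in batch 1 and higher in batches 2 and 3. The log2 difference of Itgb5 was 0.03 (standard error 0.07, adjusted p = 0.994, limma), with a ratio between 0.915 and 1.15.

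Itga1, the alpha subunit of a collagen receptor, had log2 signals of 6.25, 6.38 and 6.39 in the CTGF samples of batches 1, 2 and 3, against 6.32, 6.19 and 6.18 in the control samples. In batches 2 and 3 the CTGF sample was the higher one, while in batch 1 it was the lower one, so the groups overlapped. The log2 difference was 0.11 (standard error 0.08), the largest in size of the 6 receptor genes, and 81.2% of all probe sets had a smaller one. The ratio lay between 0.943 and 1.24 in the 95% interval (adjusted p = 0.994, limma). Without batch 1 the log2 difference of Itga1 was 0.20, with an unadjusted p = 0.0493 and an adjusted p = 0.978 in limma.

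Itga5, the alpha subunit of the fibronectin receptor, had log2 signals of 7.01, 7.05 and 6.94 with CTGF, against 6.94, 6.90 and 7.0 in controls. The CTGF sample was higher in batches 1 and 2 and lower in batch 3. The log2 difference was 0.05 (standard error 0.07), with a ratio between 0.921 and 1.17 (adjusted p = 0.994, limma). Itga6, the alpha subunit of a laminin receptor, had 10.62, 10.68 and 10.74 with CTGF, against 10.70, 10.64 and 10.58 in controls. Its log2 difference was 0.04 (standard error 0.07), with a ratio between 0.908 and 1.16 (adjusted p = 0.994, limma), and its CTGF sample was the lower one in batch 1 alone.

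Lrp1, the endocytic receptor, had log2 signals of 8.77, 8.93 and 8.82 in the CTGF samples of batches 1, 2 and 3, against 8.96, 8.80 and 8.91 in the control samples. The CTGF sample was higher in batch 2 and lower in batches 1 and 3. The means were 8.84 ± 0.08 with CTGF and 8.89 ± 0.08 in controls (SD, n = 3 each). Lrp1 was the only one of the 6 genes with a mean below control, at a log2 difference of -0.05 (standard error 0.08, adjusted p = 0.994, limma), and its ratio lay between 0.841 and 1.11.

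**Figure D1:**
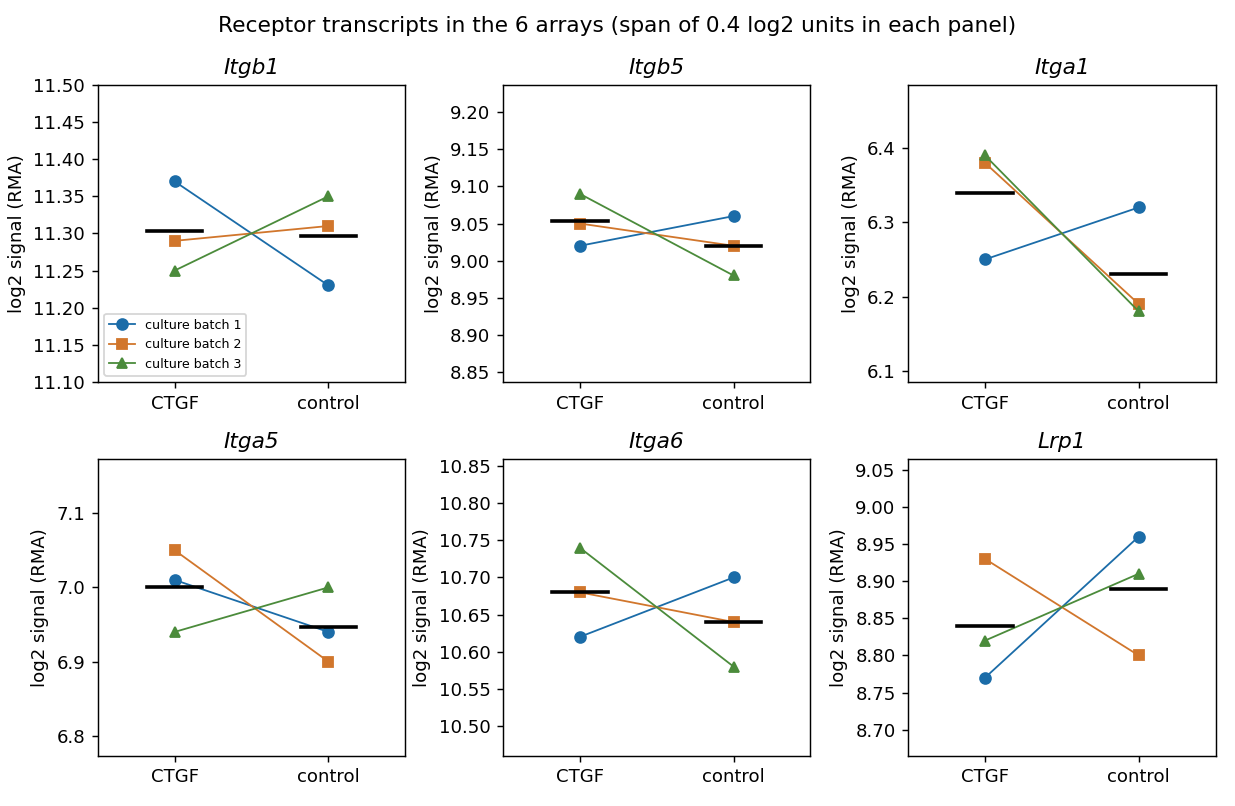
Log2 signal (vertical axes, each spanning the same range) of the 6 receptor genes in CTGF and control samples (horizontal axes). Points joined by a line are the samples of 1 culture batch and black bars are group means (n = 3). In every panel at least 1 line slopes against the others, and the means of Itgb1 round to 11.30 in both groups.

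Of the 6 receptor genes 0 passed an adjusted p of 0.05 in limma, beside 0% of all probe sets. At an unadjusted p under 0.05 the count was 0 of 6, both in limma and in the 2-way test that the methods name, beside 3.35% of all probe sets in limma, 1.45% higher and 1.89% lower with CTGF, and 4.2% in the 2-way test. The criteria of the methods, an unadjusted p under 0.05, a ratio above 1.2 or below 0.83 and group means that lie more than 10 un-logged units apart, were met by 0 of 6 in limma, beside 0.435% of all probe sets. The median log2 difference of the 6 was 0.04, against 0.00 over all probe sets, and 5 of the 6 means were above control. All 6 lay between -0.05 and 0.11, within the span from -0.15 to 0.14 that held the middle 90% of probe sets by percentile. The 95% intervals of 5 of the 6 genes lay inside the ratios of 0.83 and 1.2, and that of Itga1 reached 1.24.

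**Figure D2:**
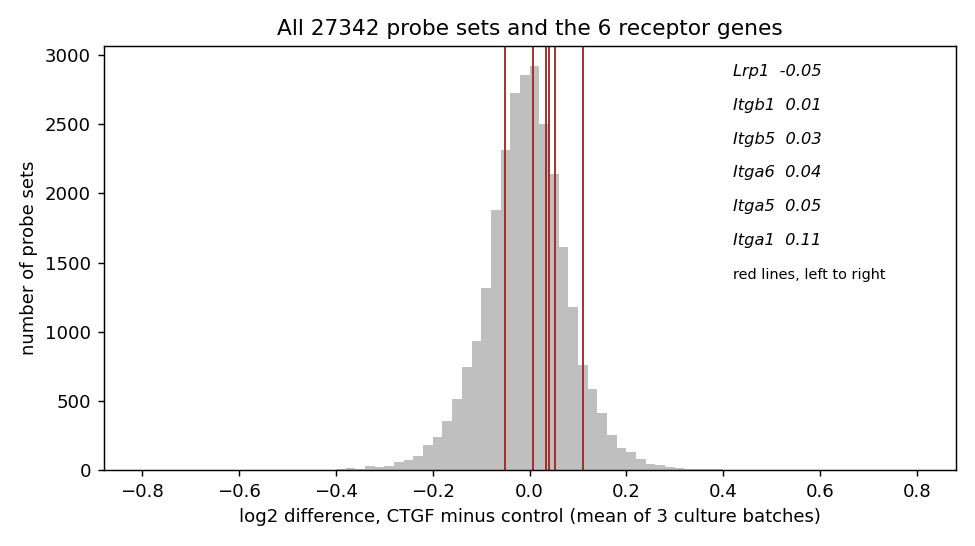
Number of probe sets (vertical axis) by their log2 difference between CTGF and control (horizontal axis) over all 27342 probe sets. The red lines mark the 6 receptor genes, from -0.05 for Lrp1 to 0.11 for Itga1.

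None of the 6 genes had 1 direction in all 3 culture batches, which is the same as groups that do not overlap in these values, beside 20.3% of all probe sets, 9.41% higher and 10.9% lower with CTGF. Itgb5, Itga1 and Itga6 shared the order lower, higher and higher in batches 1, 2 and 3, with differences of -0.04, 0.03 and 0.11 for Itgb5, of -0.07, 0.19 and 0.21 for Itga1, and of -0.08, 0.04 and 0.16 for Itga6. This order was found in 11.1% of all probe sets. Itgb1 had the opposite order, with 0.14, -0.02 and -0.10, as did 10.9% of all probe sets. Thus Itga1 and Itga6 and their partner Itgb1 differed from control in opposite directions in each batch. Itga5, another partner of Itgb1, had 0.07, 0.15 and -0.06, with the sign of Itgb1 in batches 1 and 3. Across the 6 arrays the correlation was 0.99 between Itgb5 and Itga6, -0.88 between Itgb1 and Itga6 and -0.68 between Itgb1 and Itga1. These are descriptions, since the arrays of a batch mirror each other in the deposited values and each gene is left with 3 free differences. The SD of the 3 differences was 0.08 for Itgb5 and 0.16 for Lrp1, the ends of the range of the 6 genes, and its median of 0.12 was that of all probe sets.

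The promoters of Itgb1 and Itga1 are shown because these partners of a collagen receptor, picked after their values were seen, had opposite differences in each batch. They cover 250 bases before to 50 after the gene start, from RefSeq on the GRCr8 build, at chr19:73602027-73602326 on the + strand for Itgb1 and at chr2:48545234-48545533 on the - strand for Itga1. Capitals mark matches, on either strand, to the GC box GGGCGG, which Sp1 family factors bind, or to GGAATG, a core that TEAD factors bind.
Itgb1: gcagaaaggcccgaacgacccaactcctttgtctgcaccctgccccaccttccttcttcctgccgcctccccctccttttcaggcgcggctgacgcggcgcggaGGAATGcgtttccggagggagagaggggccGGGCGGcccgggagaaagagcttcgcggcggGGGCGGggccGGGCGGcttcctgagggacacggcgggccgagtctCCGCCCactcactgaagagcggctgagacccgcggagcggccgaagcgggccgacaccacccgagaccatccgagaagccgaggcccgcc
Itga1: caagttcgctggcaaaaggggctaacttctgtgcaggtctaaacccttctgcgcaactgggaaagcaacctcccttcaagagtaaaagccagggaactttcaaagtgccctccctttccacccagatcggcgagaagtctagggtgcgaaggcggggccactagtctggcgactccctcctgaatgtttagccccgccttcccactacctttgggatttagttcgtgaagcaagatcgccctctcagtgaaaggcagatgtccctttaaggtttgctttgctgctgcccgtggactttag
In Itgb1 these were 4 GC boxes and 1 GGAATG, and in Itga1 there was no match. Of 6 receptor genes 5 had a promoter in the table, all but Itga6. A GC box was found in 3 of the 5, Itgb1, Itga5 and Lrp1, and in 33.1% of all 33469 promoters of this length. GGAATG was found in Itgb1 alone of the 5 and in 14.2% of all promoters, a TATAAA in 0 of 5 and in 14.2%, and a CCAAT in Lrp1 alone and in 37.5%. No match in Itgb1 overlapped another, and a match is no evidence of a bound site. A link between these matches and the batch differences was not tested. The share of G and C was 71.7% in the promoter of Itgb1 and 53.7% in that of Itga1, and the median of all promoters was 51.7%.

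Of 18 other integrin subunits 13 were measured, and 4 of them, Itga2, Itgal, Itgb4 and Itgb8, lay above the background level. An unadjusted p under 0.05 in limma was found for 3.35% of all probe sets, the share beside the counts of each list. Of the 13, 6 were above and 7 below control, with a median log2 difference of 0.00, and 1 had an unadjusted p under 0.05 in limma. This was Itgb4, which pairs with Itga6 in hemidesmosomes. It had 5.85, 5.82 and 5.84 in the CTGF samples of batches 1, 2 and 3, against 6.01, 6.04 and 6.02 in the control samples, so every CTGF sample lay below every control sample. Its log2 difference was -0.19 (standard error 0.06), with an unadjusted p = 0.0241 and an adjusted p = 0.994 in limma, and the SD of its 3 batch differences was 0.03, with 4.73% of all probe sets having a smaller one. Its unadjusted p in limma was 0.0512 without batch 1, 0.0766 without batch 2 and 0.0463 without batch 3. Itgb8, a subunit that pairs with Itgav and activates latent TGF-beta, had 7.01, 7.29 and 6.91 with CTGF, against 6.87, 6.59 and 6.97 in controls. Its log2 difference of 0.26 (standard error 0.14, adjusted p = 0.994, limma) came mostly from batch 2, with 0.70 there, 0.14 in batch 1 and -0.06 in batch 3, and without batch 2 it was 0.04. Itgam, which leukocytes carry, had -0.19 and Itgb6, an epithelial subunit, had -0.08, both at signals below the background level.

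**Figure D3:**
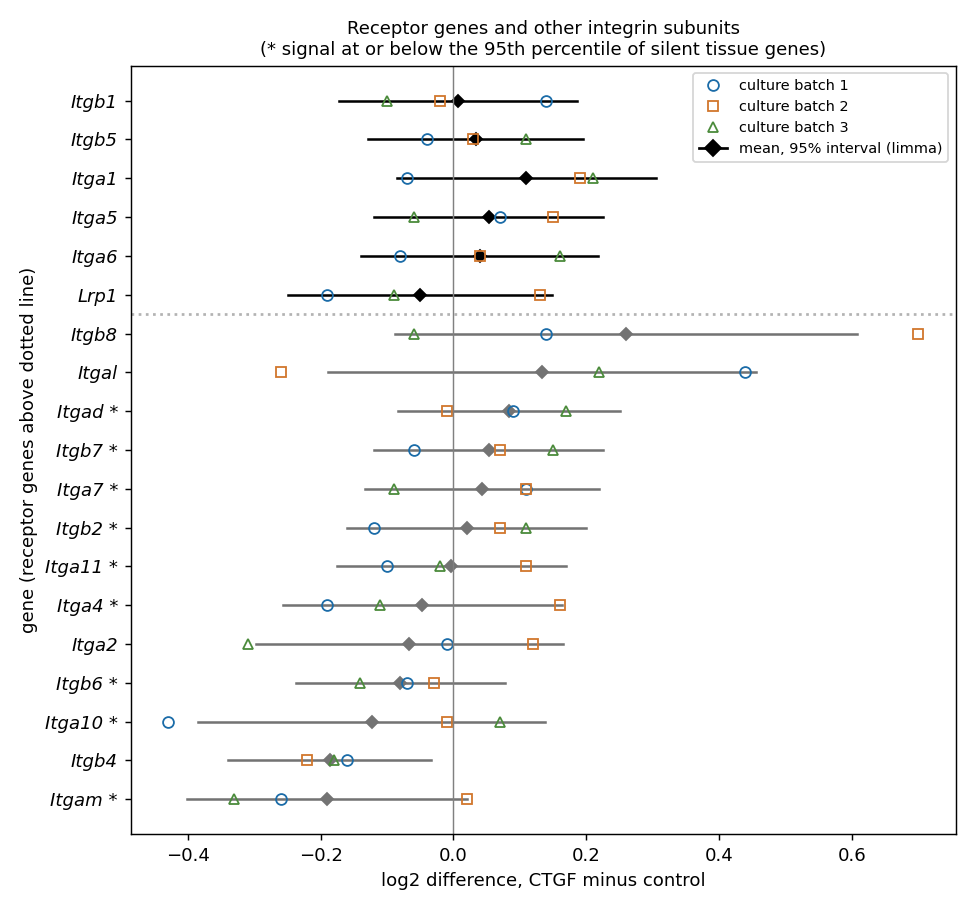
Log2 difference between CTGF and control (horizontal axis) for the 6 receptor genes and 13 other integrin subunits (vertical axis), as the mean with its 95% interval from limma (diamonds and bars) and as the values of the 3 culture batches (open symbols). The bar of Itgb4 alone does not cross 0, without adjustment for the number of probe sets, and the points of each receptor gene lie on both sides of 0.

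Of 15 genes of the low density lipoprotein receptor family, with their chaperones, 11 were measured, 8 above control, 2 below and 1 equal to it, with a median log2 difference of 0.01 and 0 at an unadjusted p under 0.05 in limma. Lrp6, a Wnt co-receptor that also binds CTGF, had 0.04 in each of the 3 batches (standard error 0.06). Lrp3 had the smallest p of the family, with a log2 difference of 0.15 (standard error 0.08, adjusted p = 0.994, limma) and 0.25, -0.01 and 0.22 in batches 1, 2 and 3, at signals below the background level. Lrp4, a receptor of agrin, had -0.04 (standard error 0.07). Lrp2, the endocytic receptor megalin, had 0.14 (standard error 0.08), with 0.20, -0.03 and 0.25 in batches 1, 2 and 3. Vldlr, which binds reelin, had 0.23, 0.18 and -0.65, a wider spread than that of Lrp1, with -0.19, 0.13 and -0.09. Lrpap1, the chaperone that guards Lrp1 in the secretory pathway, had a log2 difference of 0.01 (standard error 0.08).

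At the cytoplasmic face of integrins, 32 of 37 adaptor and kinase genes were measured, 16 above and 16 below control, with 0 at an unadjusted p under 0.05 in limma and a median of -0.01. Their log2 differences lay between -0.09 and 0.09. The kindlin gene Fermt2, whose protein activates integrins, had 0.09 (standard error 0.06), with 0.14, 0.10 and 0.04 in batches 1, 2 and 3. Vcl, the gene of vinculin, had 0.07 (standard error 0.07), with 0.04, 0.14 and 0.03. Fermt3, the kindlin of blood cells, and Lims2, an adaptor that binds integrin-linked kinase, had -0.09 each (standard errors 0.09 and 0.07), at signals below the background level. Tln1, the gene of talin, had -0.03 (standard error 0.06), and Ptk2, the gene of focal adhesion kinase, had -0.03 (standard error 0.07). Of the 32 genes 5 had 1 direction in all 3 batches, Fermt2, Vcl and Bcar1 higher and Lims2 and Csk lower, beside 20.3% of all probe sets.

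Among matrix ligands of integrins 18 of 29 were measured, 6 above and 12 below control, with 0 at an unadjusted p under 0.05 in limma and a median of -0.04. Fn1, the gene of fibronectin and so of the ligand of the Itga5 receptor, had 0.27, -0.21 and -0.57 in batches 1, 2 and 3, and a log2 difference of -0.17 (standard error 0.15). Postn, the gene of periostin, had 0.24, -0.35 and -0.34 in the 3 batches. Fbn1, the gene of fibrillin, had -0.09 (standard error 0.07) and Ccn3, a relative of CTGF, -0.08 (standard error 0.07). Lama1, a laminin chain and so a ligand of the Itga6 receptor, had 0.07 (standard error 0.06). Of the 18 genes 4 had 1 direction in all 3 batches, Lama1 and Lamb2 higher and Fbn1 and Ccn3 lower, beside 20.3% of all probe sets. Of 12 other partners reported to bind CTGF 10 were measured, 2 above and 8 below control, with 0 at an unadjusted p under 0.05 in limma and a median of -0.04. The coreceptor Sdc4, a heparan sulfate proteoglycan, had -0.02 (standard error 0.06). Igf1, Vegfa, Bmp4 and Bmp7 were the members with the smallest p, and Igf1 had 0.08, 0.11 and -0.79 in batches 1, 2 and 3. Of 15 genes listed as ligands or partners of Lrp1, with the stroma marker Pdgfrb among them, 12 were measured, 8 above and 4 below control. The collagenase gene Mmp13 was the 1 with an unadjusted p under 0.05 in limma (0.40, standard error 0.15, unadjusted p = 0.0338, adjusted p = 0.994), beside 3.35% of all probe sets. Mmp13 had 0.08, 0.86 and 0.26 in batches 1, 2 and 3, at signals below the background level. Without batch 2 the log2 difference of Mmp13 was 0.17, and its unadjusted p in limma lay between 0.0708 and 0.168 with each batch left out. Pdgfb, a platelet-derived growth factor chain, had 0.22 (standard error 0.10), Hp, the gene of haptoglobin, -0.10 (standard error 0.06) and Lpl, the gene of lipoprotein lipase, -0.10 (standard error 0.06), with Pdgfb and Lpl at signals below the background level.

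Markers of the cell types of the ovary differed between CTGF and control samples from batch to batch. The list medians changed sign between batches in all marker lists but that of macrophages. Of 10 stroma markers 9 were below control on average, 0 above and 1 equal to it, and their median differences were 0.14, 0.04 and -0.46 in batches 1, 2 and 3. In batch 3 Pdgfra, a receptor of stromal cells, had -1.03 and Lum, the gene of lumican, had -1.08. The summed un-logged signal of the stroma markers lay between 5655 and 6992 in CTGF samples and between 6380 and 7903 in control samples. Itgb1 had 0.14, -0.02 and -0.10 in the same batches. The 8 oocyte markers measured were all above control on average, but with a median log2 difference of only 0.03 and 0.003 for Ddx4. Kit alone of the 8 had 1 direction in all 3 batches, beside 20.3% of all probe sets. In batches 1, 2 and 3 the oocyte markers had median differences of 0.12, -0.145 and 0.21. Their summed signals lay between 6078 and 6768 with CTGF and between 5846 and 6525 in controls. Kit, the receptor of Kit ligand, was the 1 of the 8 with an unadjusted p under 0.05 in limma (0.19, standard error 0.07, unadjusted p = 0.0326, adjusted p = 0.994), beside 3.35% of all probe sets. With each batch left out the unadjusted p of Kit in limma lay between 0.0649 and 0.0889. The 9 granulosa cell markers had median differences of -0.16, 0.22 and -0.02, and summed signals between 3729 and 4092 with CTGF and between 3690 and 4055 in controls. Lrp1 had -0.19, 0.13 and -0.09, the same order of lower, higher and lower. That order was also found in the medians of the endothelial markers and of the other integrin subunits, and in 9.69% of all probe sets. The part of these cell types in the differences of the receptor genes was not tested.
The other marker lists are given by their counts, and that of macrophages also by its medians. Of 6 endothelial markers measured 2 were above and 4 below control. The 2 above, Tie1 and Cldn5, had signals below the background level. The 3 endothelial markers with signals over that level, Tek, Emcn and Esam, were all below control. Of 6 smooth muscle markers, 5 of them over the background level, 3 were above and 3 below control, and of 5 surface epithelium markers 2 and 3. Of 10 macrophage markers 2 were above and 8 below control, with median differences of -0.045, -0.08 and -0.245 in batches 1, 2 and 3. The 4 with 1 direction in all 3 batches, C1qa, C1qb, C1qc and Aif1, were lower with CTGF, beside 20.3% of all probe sets. Aif1 had signals below the background level. The complement gene C1qa was the 1 macrophage marker with an unadjusted p under 0.05 in limma (-0.21, standard error 0.08, unadjusted p = 0.0451, adjusted p = 0.994). The share of all probe sets with such a p was 3.35%, which also stands beside the counts of platelet and red cell markers. Of 4 platelet markers 1 had an unadjusted p under 0.05 in limma, Pf4, the gene of platelet factor 4 (-0.16, standard error 0.06, unadjusted p = 0.0471, adjusted p = 0.994, limma), and of 5 red cell markers 0 had an unadjusted p under 0.05. In both lists 1 marker lay above the background level, Pf4 and Hbb, a hemoglobin chain with a log2 difference of 0.00, so the directions of the others were not read. With each batch left out the unadjusted p in limma lay between 0.031 and 0.214 for C1qa, under 0.05 without batch 2 alone, and between 0.0669 and 0.105 for Pf4.

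**Figure D4:**
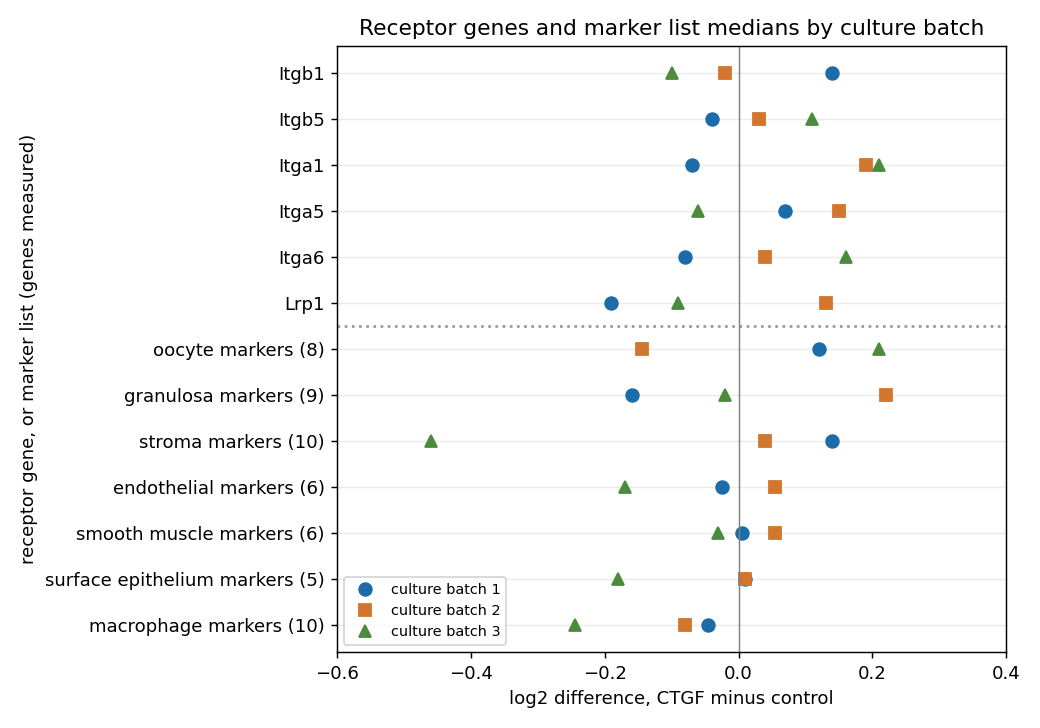
Log2 difference between CTGF and control (horizontal axis) in culture batches 1, 2 and 3 (symbols) for the 6 receptor genes and, below the dotted line, as the median over the genes measured of 7 marker lists (vertical axis). The stroma markers stand at -0.46 in batch 3, while the receptor genes lie between -0.19 and 0.21 in all batches.

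The genes whose values were most like those of Itgb1 and of Lrp1 across the 6 arrays were sought among 9279 other probe sets with 1 symbol and a signal above the background level. Prkaa2, a catalytic subunit of AMP-activated protein kinase, was the first for Itgb1 (Pearson correlation 0.9997 over 6 arrays), followed by Lsm11 and Sra1, and 54 probe sets had a correlation over 0.99. For Lrp1 the first was Acsbg1 (0.9992), an acyl-CoA synthetase, followed by Serhl2 and Chml, and 35 were over 0.99. The arrays share their batches, and each gene has 3 free differences, so that many probe sets match closely. Prkaa2 had 0.19, -0.03 and -0.13 in batches 1, 2 and 3, beside 0.14, -0.02 and -0.10 for Itgb1.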

How the data were processed

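Transcripts were measured on rat gene arrays in 6 samples, 3 of ovaries treated with CTGF and 3 of control ovaries. The authors computed 1 log2 value per probe set by RMA, adjusted for GC content, in Partek (named in the submitters' processing notes). Values were deposited on the log2 scale to 2 decimals, and the batch differences had been removed before deposit. Samples were grouped by their titles and paired by the replicate number in them, which was taken as the organ culture batch for which the methods block. The deviations of paired arrays correlated at -0.9988, -0.9988 and -0.9991, which follows from that removal. Names come from the platform annotation, and 15067 of 15097 probe sets with 1 symbol matched RefSeq by Entrez number. CTGF and control were compared with limma 3.58.1 in R 4.3.3 (functions lmFit and eBayes, blocked by culture batch) over all 27342 probe sets without a filter, with Benjamini-Hochberg adjustment. The procedure was tested on simulated data. For a gene with several probe sets in the lists, that with the highest mean signal was used, and up to 4 genes of each list with the smallest p were to be named, fewer in the marker lists, with others chosen for their role or after their values were seen. The receptor genes and lists were chosen with earlier results of these data known. Pools were separate wells. The p-values of the blocked fit rest on the spread of the 3 batch differences between CTGF and control, which limma moderates over all probe sets. The alternatives were no block, other scaling, 2 filters on low signals, moderation with a trend and robust options, the 2-way test of the methods and each replicate left out.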

Additional observations from a re-analysis of the deposited data

How the results depend on the processing

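No receptor gene passed an adjusted p of 0.05 in limma under any alternative tried, and the smallest adjusted p of the 6 was 0.411, for Itga1 without the replicate block. The fit with no replicate block treats the samples as unpaired, counts residual degrees of freedom that the removal of batch differences had used up, and changed no call of a receptor gene. It gave 4415 probe sets at an unadjusted p under 0.05, against 915 with the block, and 0 after adjustment in both. Quantile normalization, median centring, both filters, the trend and robust options and the methods' 2-way test kept the direction of all 6 genes. With each replicate left out, the log2 difference lay between -0.06 and 0.06 for Itgb1, between -0.005 and 0.07 for Itgb5, between 0.06 and 0.20 for Itga1, between 0.005 and 0.11 for Itga5, between -0.02 and 0.10 for Itga6 and between -0.14 and 0.02 for Lrp1. The sign turned for Itgb1 (-0.06) and Lrp1 (0.02) without replicate 1, and for Itgb5 (-0.005) and Itga6 (-0.02) without replicate 3. The count at an unadjusted p under 0.05 lay between 0 and 1 of 6, with Itga1 the 1 without replicate 1, when 2.36% of all probe sets had such a p. The count with 1 direction in the remaining batches was 4 without replicate 1, when 43.7% of all probe sets had 1 direction. It was 1 without replicate 2 and 1 without replicate 3, beside 43.3% and 49.0% of all probe sets. Itgb4 had an unadjusted p in limma of 0.0551 with the trend and robust options, 0.0512 without replicate 1 and 0.0766 without replicate 2. It was 0.0463 in limma without replicate 3 and 0.00881 in the 2-way test. With quantile normalization and median centring it was 0.0323 and 0.0337 in limma, and with the filters 0.0235 and 0.0218. The smallest adjusted p of Itgb4 in limma was 0.075, without the replicate block. Pools of 2 to 3 ovaries and 3 arrays a group limit the precision of all these values.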
